A study of Mus musculus with 6 samples.

Results

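Most of the 27 genes described here make cholesterol, or serve or control the transcription factor SREBP2, which switches cholesterol synthesis on. All 27 were taken from a written list of symbols, chosen with earlier results of these data known. Each was found in the deposited tables, among 34352 genes with a symbol and 55335 genes with FPKM (a read level corrected for gene length and library size). All 27 also passed the filter on low values, which asked for 3 or more libraries with FPKM of 1 or above and left 9908 genes to test. The list is not the whole pathway, and some of its best-known genes were not used here.

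Livers came from wild-type C57BL/6 mice. In the exposed group the animals received cadmium chloride (CdCl2) through the stomach at 20 mg/kg each day until day 90, and in the control group the dose was 0 mg/kg. Mice were described as male, 6 to a group, and were 6 to 8 weeks of age at entry. Each group has 3 libraries, numbered by replicate, and a batch label carries the same number, so each batch joins 1 cadmium library with 1 control library. The RNA sequenced is the input fraction of an m6A immunoprecipitation, named in the labels as fragments that the antibody left unbound, so a level here is a level in that fraction. How animals map to libraries is not stated, and the p-values therefore measure the spread between libraries, which may be partly technical.

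The libraries held 42115960 to 68587128 recovered reads. Hepatocyte genes dominated them: the 12 hepatocyte markers summed to 19097 to 27936 FPKM in cadmium libraries and 18034 to 26593 FPKM in control libraries, and all 7 lymphocyte markers stayed under 1 FPKM everywhere. Xist, the RNA that silences an X chromosome, stood at 19.7 to 35.5 FPKM in the 6 libraries, while the Y-linked genes Ddx3y and Eif2s3y were listed at 0 throughout and Uty and Kdm5d did not exceed 6.76e-05 FPKM. The sex genes thus go against the label of male mice in every library, in both groups alike. Control replicate 1 and cadmium replicate 2 stood apart by a low share of mitochondrial rRNA, 0.277% in cadmium replicate 2 and 0.265% in control replicate 1, against 0.782% to 1.18% in the others. The hepatocyte marker Alb also took a lower share of their reads. It took 2.91% in cadmium replicate 2 and 2.87% in control replicate 1, against 4.89% to 5.06% in the others.

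Cholesterol is built from acetyl-CoA in the cytosol and endoplasmic reticulum. A run of mevalonate enzymes makes the isoprenoid farnesyl diphosphate, from which squalene and then lanosterol are formed, and a set of membrane enzymes trims and reduces lanosterol to cholesterol. When membranes are low in sterol, the escort protein SCAP carries SREBP2 to the Golgi, where proteases release its active fragment to switch on these genes together. When sterol is plentiful, the INSIG proteins hold SCAP and SREBP2 in the endoplasmic reticulum. The liver is a main site of this synthesis and also turns cholesterol into bile acids.

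The promoters of 4 genes called higher in cadmium are shown because SREBP2 and its partner NF-Y act through promoter sequence close to the start site. RefSeq windows (GRCm38.p6, 250 bases before to 50 bases after a start site) were found for 23 of the 27 genes. The letters TCACNCCA, a core of sterol regulatory elements, and CCAAT, the NF-Y letters, were searched on both strands. Matches stand in capitals, on the strand of the gene. The windows are chr13:119690101-119690400 on the plus strand for Hmgcs1, chr15:82147019-82147318 on the plus strand for Srebf2, chr8:122443373-122443672 on the minus strand for Mvd, and chr9:110333038-110333337 on the plus strand for Scap, the first of the 2 Scap windows.
Hmgcs1: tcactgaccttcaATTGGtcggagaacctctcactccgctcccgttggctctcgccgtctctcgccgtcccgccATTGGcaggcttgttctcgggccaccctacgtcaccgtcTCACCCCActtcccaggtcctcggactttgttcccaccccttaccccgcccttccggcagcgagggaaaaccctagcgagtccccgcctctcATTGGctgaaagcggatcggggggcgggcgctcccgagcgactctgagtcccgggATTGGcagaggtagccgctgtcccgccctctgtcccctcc
Srebf2: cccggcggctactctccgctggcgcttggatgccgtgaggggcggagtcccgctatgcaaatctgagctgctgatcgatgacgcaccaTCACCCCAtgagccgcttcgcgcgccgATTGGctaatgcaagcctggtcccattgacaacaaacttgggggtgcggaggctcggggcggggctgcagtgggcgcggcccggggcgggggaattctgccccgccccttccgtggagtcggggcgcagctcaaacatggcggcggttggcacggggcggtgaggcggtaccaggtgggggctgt
Mvd: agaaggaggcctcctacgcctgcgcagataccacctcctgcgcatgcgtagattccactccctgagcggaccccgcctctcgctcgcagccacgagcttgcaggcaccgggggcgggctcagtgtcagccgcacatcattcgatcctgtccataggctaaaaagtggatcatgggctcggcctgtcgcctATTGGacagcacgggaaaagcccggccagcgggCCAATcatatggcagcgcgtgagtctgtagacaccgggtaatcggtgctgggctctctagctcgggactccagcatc
Scap: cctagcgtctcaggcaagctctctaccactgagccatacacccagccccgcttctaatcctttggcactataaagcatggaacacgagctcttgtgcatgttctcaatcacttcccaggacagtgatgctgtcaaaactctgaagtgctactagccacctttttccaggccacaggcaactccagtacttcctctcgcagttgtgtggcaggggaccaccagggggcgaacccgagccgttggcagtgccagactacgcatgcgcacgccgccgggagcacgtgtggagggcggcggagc

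Both Hmgcs1 and Srebf2 hold TCACNCCA, at positions -137 to -130 of the Hmgcs1 window and -162 to -155 of the Srebf2 window, counted from the start site. Neither match overlaps a CCAAT match. Mvd holds CCAAT on each strand and no TCACNCCA, and Scap holds neither in the window shown. Among the 23 matched genes TCACNCCA stood in 3, namely Hmgcs1, Msmo1 and Srebf2, against 4.97% of all 27025 genes in the table. CCAAT was more widespread and stood in 21 of the 23, against 41.1% of all genes. GGGCGG, the letters of GC boxes, likewise stood in 21, against 38.2%. A match describes letters only.

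In cadmium livers 7 of the 27 genes rose and 0 fell at an adjusted p of 0.05 (limma, two-sided, adjusted over all 9908 genes). Of all tested genes 9.68% were called, 7.86% higher and 1.82% lower. The same shares stand beside every count of calls in a list below. The 7 were the mevalonate enzymes Hmgcs1, Mvd and Mvk, the sterol reductase Tm7sf2, and the regulators Srebf2, Scap and Insig2. The median log2 fold change of the 27 genes was 0.64, against 0.09 for all genes tested. Of the 27 fold changes 26 were positive, of which Ggps1 turned negative after quantile normalization. Over all 9908 tested genes 6613 fold changes were positive and 3295 negative. Every cadmium library lay above every control library for 14 of the 27 genes and below for 0, where 26.4% of all tested genes lay above and 7.24% below. At an unadjusted p under 0.05, 18 of the 27 were higher, against 21.2% of all genes. In the authors' deposited table, 10 of the 27 had a false discovery rate under 0.05 and were higher in cadmium, against 3.72% of its 34352 genes. Most of those genes failed the filter on low values, which all 27 passed, so this share is not like the others here. With voom on recovered reads 6 of the 27 were called, against 5.58% of all genes.

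The calls depended on the libraries and settings used. With the batch number as a block 1 gene, Scap, was called, against 1.86% of all genes. With no filter on low values 0 were called, where 31 genes were called higher over all genes. Leaving out 1 library at a time gave 0 to 9 calls among the 27. The 0 came without cadmium replicate 3, and the 9 came without control replicate 3, where 3.0% of all genes were called higher. Those 9 held 4 of the 7, namely Hmgcs1, Mvk, Scap and Insig2, and 5 further enzymes.

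**Figure D1:**
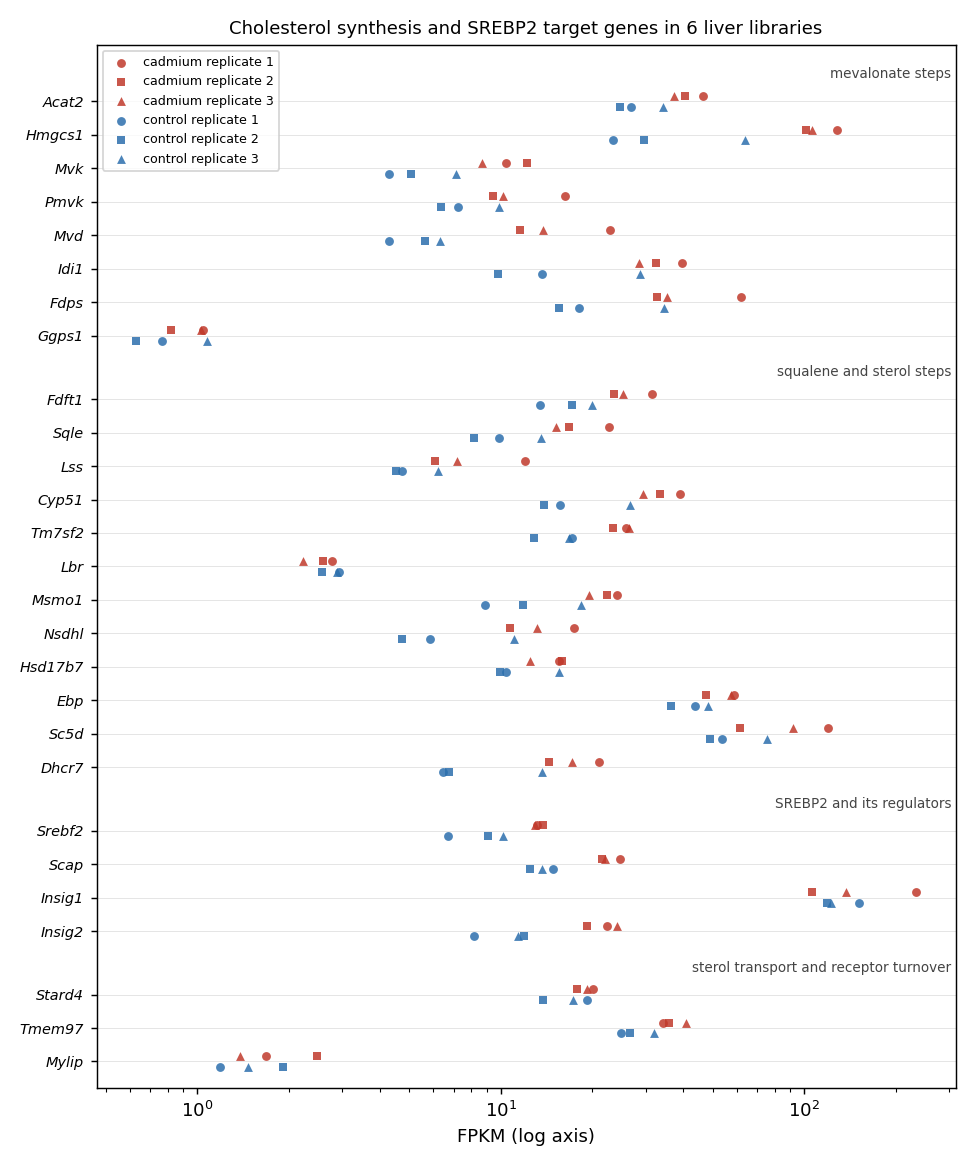
FPKM (log axis) of the 27 genes in 3 cadmium libraries (red, upper row of each gene) and 3 control libraries (blue, lower row), with a marker shape for each replicate number. Control replicate 3 lies to the right of the other 2 control libraries for most enzymes of the upper blocks, and for Idi1 it reaches 28.8 FPKM, above the lowest cadmium library at 28.5.

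The mevalonate steps held the 2 largest fold changes of the 27, those of Hmgcs1 and Mvd. Of these 8 genes 3 rose and 0 fell, against 7.86% and 1.82% of all tested genes. All 8 fold changes were positive, as were 6613 of the 9908 over all genes. The median log2 fold change of the 8 was 0.88. Hmgcs1 (ENSMUSG00000093930, chr13:119690379-119708260, mm10), the cytosolic HMG-CoA synthase that commits acetyl units to the pathway, had 128, 102 and 106 FPKM in cadmium replicates 1 to 3, against 23.4, 29.6 and 64.0 FPKM in control replicates 1 to 3. The groups did not overlap, although control replicate 3 held more than 2 times the level of the other 2 controls. Its mean was 112 ± 14.4 FPKM in cadmium and 39.0 ± 21.9 FPKM in control (SD, n = 3 each), 2.87 times as high in cadmium, and the log2 fold change was 1.62 (SE 0.36, adjusted p = 0.0407). The call was lost with the batch block (adjusted p = 0.0818), with voom (0.0655), in trimmed mean (0.0556) and upper quartile scaling (0.0506), and with no variance trend (0.0535). Leaving out control replicate 3 gave 0.0163, and leaving out each of the other 5 libraries ended the call, at 0.0644 to 0.131. Hmgcs1 overlaps the antisense gene Gm48342, and whether reads were counted by strand is not given in the sources used here.

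Mvd (ENSMUSG00000006517, chr8:122433601-122443422), the decarboxylase that forms isopentenyl diphosphate, had 22.9, 11.6 and 13.8 FPKM in the cadmium libraries, against 4.28, 5.61 and 6.32 FPKM in the control libraries. Each cadmium library exceeded every control, and cadmium replicate 1 was the highest by a wide margin. The ratio of means was 2.98 and the log2 fold change 1.37 (SE 0.25, adjusted p = 0.0248, or 0.0760 with the batch block). Mvd kept its call without cadmium replicates 1 or 2 and lost it without cadmium replicate 3 (0.0846) or without any 1 control, at 0.0572, 0.0657 and 0.0562. Mvk, the mevalonate kinase, had 10.4, 12.2 and 8.70 FPKM in cadmium libraries, against 4.27, 5.05 and 7.09 FPKM in control libraries. The groups were separate, with control replicate 3 the nearest to the cadmium range. Its log2 fold change was 0.83 (SE 0.18, adjusted p = 0.0337, or 0.103 with the block), and of the 6 fits without 1 library it was called in that without control replicate 3, while the other 5 gave 0.0660 to 0.101. Trimmed mean scaling gave 0.0515. Mvd overlaps Gm20388 on the opposite strand.

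The remaining mevalonate genes did not pass the test. Acat2, the cytosolic thiolase at the head of the pathway, had 46.3, 40.4 and 37.3 FPKM in cadmium libraries, against 26.8, 24.7 and 34.2 FPKM in control libraries (log2 fold change 0.52, adjusted p = 0.0777). The groups did not overlap. Acat3, a close paralog on which reads can be shared, had 59.2, 74.3 and 61.0 FPKM in cadmium libraries and 41.8, 51.3 and 51.7 FPKM in control libraries (adjusted p = 0.122), so the 2 thiolases are uncertain as single genes. Pmvk, the phosphomevalonate kinase, had 16.2, 9.40 and 10.2 FPKM in cadmium libraries, against 7.23, 6.36 and 9.84 FPKM in control libraries (log2 fold change 0.54, adjusted p = 0.187). Cadmium replicate 2 lay under control replicate 3 here.

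Idi1, Fdps and Ggps1 handle the isoprenoid units that Mvd releases. The isomerase Idi1 had 39.5, 32.4 and 28.5 FPKM in cadmium libraries, against 13.7, 9.76 and 28.8 FPKM in control libraries (log2 fold change 1.03, SE 0.38, adjusted p = 0.145). Fdps, which makes farnesyl diphosphate, had 62.0, 32.8 and 35.4 FPKM in cadmium libraries, against 18.1, 15.5 and 34.5 FPKM in control libraries (log2 fold change 0.93, SE 0.36, adjusted p = 0.163). For both genes control replicate 3 sat inside the cadmium range and the other 2 controls far under it, and Idi1 was called when control replicate 3 was left out (adjusted p = 0.0309), while Fdps was not (0.0670). Ggps1, which makes geranylgeranyl diphosphate for protein prenylation and not for sterols, had 1.04, 0.817 and 1.03 FPKM in cadmium libraries, against 0.766, 0.626 and 1.07 FPKM in control libraries (log2 fold change 0.11, 95% confidence interval -0.14 to 0.36, adjusted p = 0.550). Ggps1 was the least abundant of the 27 and its direction turned to -0.050 after quantile normalization.

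Among the 12 enzymes from squalene to cholesterol 1 rose and 0 fell, against 7.86% and 1.82% of all tested genes. The 1 call is near the share of all genes. The median log2 fold change of the 12 was 0.66. Tm7sf2 (ENSMUSG00000024799, chr19:6062821-6068373), a sterol C14 reductase of the endoplasmic reticulum, was the gene that rose. It had 25.8, 23.5 and 26.5 FPKM in cadmium libraries, against 17.1, 12.8 and 16.8 FPKM in control libraries. The groups were well apart, and control replicate 3 was not the highest control here. The log2 fold change was 0.67 (SE 0.13, adjusted p = 0.0271), and the call was lost with the block (0.0549). Quantile, trimmed mean and upper quartile scaling ended it too, at 0.0740, 0.0710 and 0.0530, as did the deposited log2 values at 0.0562. It was kept without cadmium replicate 2 (0.0499) or control replicate 1 (0.0320) and lost without each of the other 4, at 0.0503 to 0.115. Tm7sf2 overlaps Vps51 on the same strand.

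Lbr, the lamin B receptor of the nuclear envelope, carries the same C14 reductase activity as Tm7sf2 but showed no such difference. It had 2.78, 2.59 and 2.24 FPKM in cadmium libraries, against 2.94, 2.58 and 2.88 FPKM in control libraries, and it was the only 1 of the 27 with a negative fold change (log2 -0.11, 95% confidence interval -0.31 to 0.10, adjusted p = 0.496). The level of Tm7sf2 was 9.26, 9.08 and 11.8 times that of Lbr in cadmium libraries, against 5.84, 4.97 and 5.83 times in control libraries. The ratios did not overlap between the groups, but Tm7sf2 was already called with separate groups, so they add no support of their own. With 3 libraries a group an exact two-sided permutation test cannot go below p = 0.1, the value here.

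The other sterol enzymes were each higher on average in cadmium without passing the test. Fdft1, which joins farnesyl units into squalene, came nearest, with 31.5, 23.6 and 25.3 FPKM in cadmium libraries and 13.5, 17.1 and 20.0 FPKM in control libraries (log2 fold change 0.64, SE 0.17, adjusted p = 0.0585). Sqle, the squalene epoxidase that is a control point of the pathway, had 22.7, 16.8 and 15.2 FPKM in cadmium libraries, against 9.84, 8.15 and 13.6 FPKM in control libraries (0.75, SE 0.21, adjusted p = 0.0673). Neither gene had overlapping groups. Fdft1 overlaps Ctsb on the opposite strand, an abundant liver gene, so part of its reads may be uncertain. Lss, which closes the ring to lanosterol, had 12.0, 6.06 and 7.15 FPKM in cadmium libraries, against 4.72, 4.53 and 6.20 FPKM in control libraries (0.57, adjusted p = 0.180). Cadmium replicate 1 stood well above the rest, and cadmium replicate 2 lay under control replicate 3.

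Cyp51, the lanosterol demethylase, had 39.0, 33.4 and 29.5 FPKM in cadmium libraries, against 15.7, 13.9 and 26.7 FPKM in control libraries (log2 fold change 0.87, SE 0.24, adjusted p = 0.0662). Msmo1 and Nsdhl, which remove the methyl groups at C4, likewise had control replicate 3 as the highest control. Msmo1 had 24.1, 22.5 and 19.5 FPKM in cadmium libraries, against 8.90, 11.8 and 18.4 FPKM in control libraries (0.76, adjusted p = 0.0927). Nsdhl, an X-linked gene, had 17.4, 10.8 and 13.2 FPKM in cadmium libraries, against 5.86, 4.73 and 11.0 FPKM in control libraries (0.90, adjusted p = 0.123). All 3 were called when control replicate 3 was left out, at 0.0309, 0.0377 and 0.0409. Hsd17b7, the ketoreductase that works beside them, had 15.6, 15.9 and 12.5 FPKM in cadmium libraries, against 10.4, 9.94 and 15.5 FPKM in control libraries (0.29, 95% confidence interval -0.12 to 0.71, adjusted p = 0.338), and its groups overlapped.

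Ebp, Sc5d and Dhcr7 finish the ring system. Dhcr7, the last reductase of one route to cholesterol, had 21.0, 14.4 and 17.1 FPKM in cadmium libraries, against 6.47, 6.76 and 13.6 FPKM in control libraries (log2 fold change 0.95, SE 0.28, adjusted p = 0.0890, and 0.0307 without control replicate 3). The groups did not overlap, and control replicate 3 fell just short of the lowest cadmium library. The isomerase Ebp, also X-linked, had 58.8, 47.6 and 57.3 FPKM in cadmium libraries, against 43.6, 36.4 and 48.0 FPKM in control libraries (0.35, adjusted p = 0.186). Sc5d, the C5 desaturase, had 120.1, 61.5 and 91.7 FPKM in cadmium libraries, against 53.8, 48.7 and 75.1 FPKM in control libraries (0.59, adjusted p = 0.215). Both overlapped, since cadmium replicate 2 lay under control replicate 3.

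**Figure D2:**
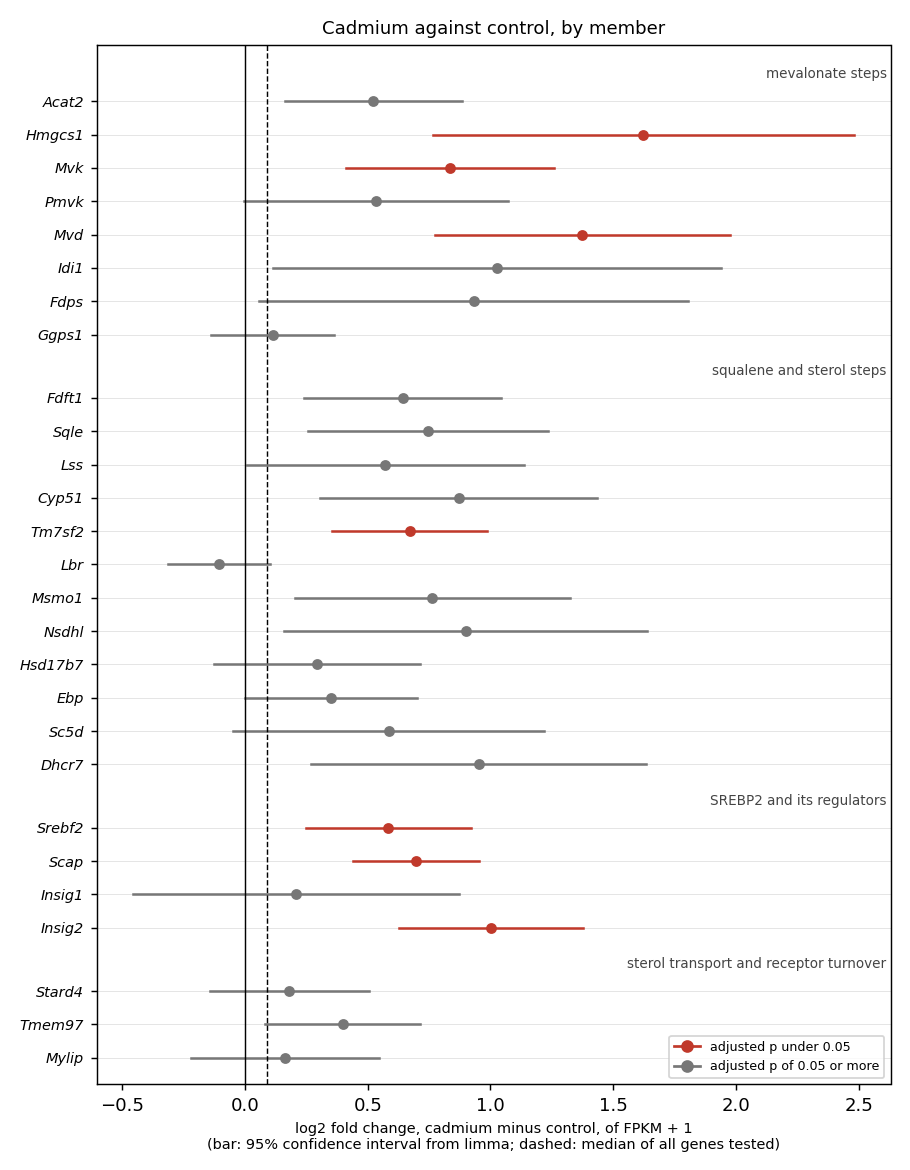
Log2 fold change of FPKM + 1, cadmium minus control, with its 95% confidence interval for each of the 27 genes, 3 libraries a group. The 7 called genes are red, the dashed line at 0.09 is the median of all 9908 genes tested, and Lbr is the only point left of 0.

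Of SREBP2 and its 3 regulators, 3 genes rose and 0 fell, against 7.86% and 1.82% of all tested genes. For those 3 all cadmium libraries lay above all controls, as they did for 26.4% of all tested genes. The median log2 fold change of the 4 was 0.64. Scap (ENSMUSG00000032485, chr9:110333288-110384950), the sterol-sensing escort of SREBP2, had 24.7, 21.5 and 22.1 FPKM in cadmium libraries, against 14.8, 12.5 and 13.7 FPKM in control libraries. The spread within each group was small beside the gap, and control replicate 3 lay between the other 2 controls. The log2 fold change was 0.70 (SE 0.11, adjusted p = 0.0143), and Scap was the gene of the 27 that stayed called with the batch block (0.0486). It was called after each scaling and with voom (0.0202 to 0.0417 over these), and lost with no filter on low values (0.0658) and without cadmium replicates 1 or 3 (0.0505 and 0.0684). Scap overlaps 5830462I19Rik on the opposite strand.

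Insig2 (ENSMUSG00000003721, chr1:121304353-121332589), which encodes the retention protein of the endoplasmic reticulum that does not depend on SREBP2 for its own transcription, had 22.3, 19.2 and 24.1 FPKM in cadmium libraries, against 8.15, 11.9 and 11.4 FPKM in control libraries. No cadmium library came near the control range. The ratio of means was 2.08 and the log2 fold change 1.00 (SE 0.16, adjusted p = 0.0143, or 0.0533 with the block). Insig2 lost its call without cadmium replicate 1 (0.0527) or cadmium replicate 3 (0.0683) and kept it without each of the other 4 libraries, after each scaling and with voom (0.00773). It overlaps Gm37174 on the opposite strand. It has a liver transcript and a widely expressed transcript from separate start sites, which values per gene do not tell apart.

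Insig1, the related retention protein and itself a target of SREBP2, did not pass the test. It was the most abundant of the 27, with 234, 106 and 137 FPKM in cadmium libraries, against 152, 119 and 123 FPKM in control libraries. The groups overlapped, with cadmium libraries both highest and lowest, and the log2 fold change was 0.21 (95% confidence interval -0.46 to 0.87, adjusted p = 0.691). Without cadmium replicate 1 it was -0.11. The level of Insig1 was 10.5, 5.55 and 5.69 times that of Insig2 in cadmium libraries, against 18.6, 9.98 and 10.8 times in control libraries, and these ratios overlapped between the groups. Within each of the 3 batches the ratio was lower in the cadmium library than in the control library, a difference that was not tested.

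Srebf2 (ENSMUSG00000022463, chr15:82147181-82205379), the gene of SREBP2 and host of Mir33, had 13.1, 13.8 and 13.0 FPKM in cadmium libraries, against 6.70, 9.11 and 10.1 FPKM in control libraries. The cadmium libraries were nearly equal and all above the controls. The log2 fold change was 0.58 (SE 0.14, adjusted p = 0.0469). This call was the weakest of the 7: it was kept with voom (0.0484) and lost in each of the other alternatives tried, among them the batch block (0.0880) and every fit without 1 library (0.0509 to 0.140). Srebf1, the related gene whose products drive fatty acid synthesis, had 56.9, 37.9 and 36.6 FPKM in cadmium libraries, against 51.3, 82.7 and 117 FPKM in control libraries (-0.87, SE 0.32, adjusted p = 0.140), a fold change of opposite sign that did not pass the test but did without control replicate 1 (0.0395).

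The 3 genes of sterol transport and receptor turnover gave 0 calls. Tmem97, the sigma-2 receptor of the endoplasmic reticulum, had 34.2, 35.9 and 40.9 FPKM in cadmium libraries, against 25.0, 26.7 and 32.1 FPKM in control libraries (log2 fold change 0.40, adjusted p = 0.112), without overlap. Stard4, a carrier of cholesterol between membranes, had 20.1, 17.8 and 19.2 FPKM in cadmium libraries, against 19.3, 13.8 and 17.3 FPKM in control libraries (0.18, 95% confidence interval -0.14 to 0.50, adjusted p = 0.448). Mylip, also called IDOL, marks lipoprotein receptors for breakdown and answers to the oxysterol receptor LXR and not to SREBP2. It had 1.68, 2.49 and 1.38 FPKM in cadmium libraries, against 1.19, 1.91 and 1.47 FPKM in control libraries (0.16, 95% confidence interval -0.22 to 0.55, adjusted p = 0.566). In each group replicate 2 was the highest for Mylip.

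The libraries of each group were not equal in these genes. Control replicate 3 was the highest control for 20 of the 27 genes and for 18 of the 20 enzymes of the mevalonate and sterol steps, where it was the highest control for 33.9% of all tested genes. Its level exceeded 1.5 times the mean of the other 2 controls for 11 of the 27 genes, against 3.22% of all genes, and the excess was largest for Idi1 (2.46 times) and Hmgcs1 (2.42 times) and absent for Scap (1.00 times). Cadmium replicate 1 was likewise the highest cadmium library for 20 of the 27 genes and 17 of the 20 enzymes, against 28.2% of all tested genes. The 20 enzymes summed to 718, 520 and 558 FPKM in cadmium replicates 1 to 3, against 291, 275 and 454 FPKM in control replicates 1 to 3. The lowest cadmium sum was thus above the highest control sum, while control replicate 3 stood nearer to cadmium replicates 2 and 3 than to the other 2 controls.

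**Figure D3:**
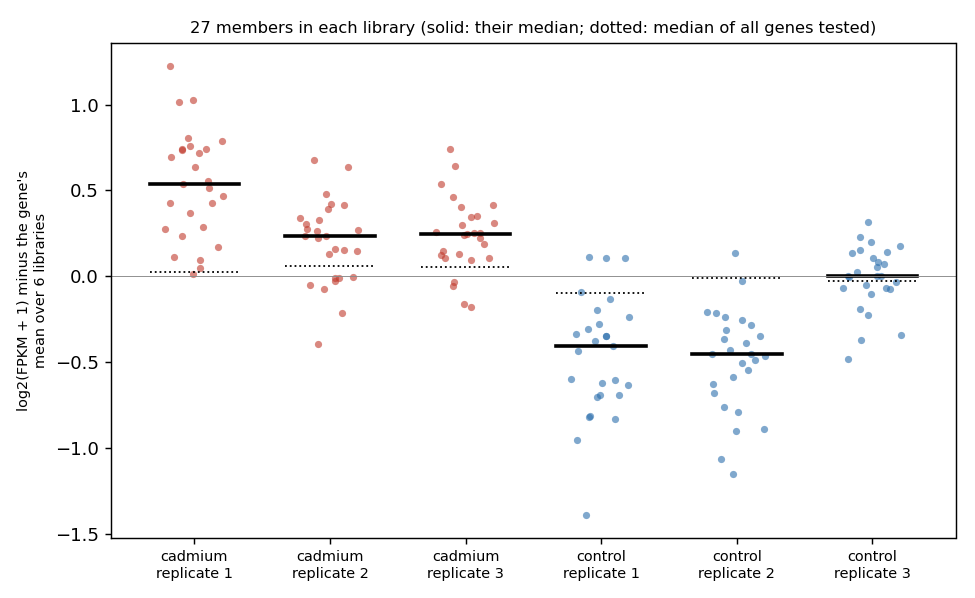
Log2(FPKM + 1) of each of the 27 genes minus that gene's mean over the 6 libraries, 1 point a gene, with cadmium libraries left and control libraries right. The solid bar is the median of the 27 genes, at 0.54, 0.24 and 0.25 in the cadmium libraries, against -0.41, -0.46 and 0.00 in the control libraries, and the dotted bar is the median of all genes tested.

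Within batches the difference was present but unequal. In batch 1 the cadmium library was higher for 26 of the 27 genes, against 67.7% of all tested genes. In batch 2 it was higher for 26, against 60.0%, and in batch 3 for 22, against 62.5%. The median log2 difference of the 27 genes was 1.11, 0.64 and 0.18 in batches 1 to 3. The medians of all tested genes were 0.13, 0.07 and 0.08 in batches 1 to 3. The difference was smallest in batch 3 for 22 of the 27 genes, against 30.2% of all genes. Scap differed by 0.70, 0.73 and 0.65 and Tm7sf2 by 0.56, 0.82 and 0.63, so these genes moved alike in the 3 batches, whereas Hmgcs1 differed by 2.41, 1.74 and 0.72 and Idi1 by 1.46, 1.64 and -0.02. The cadmium library was higher in all 3 batches for 21 of the 27 genes, against 36.9% of all genes. Each batch holds 1 library a group, so it has no test of its own.

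**Figure D4:**
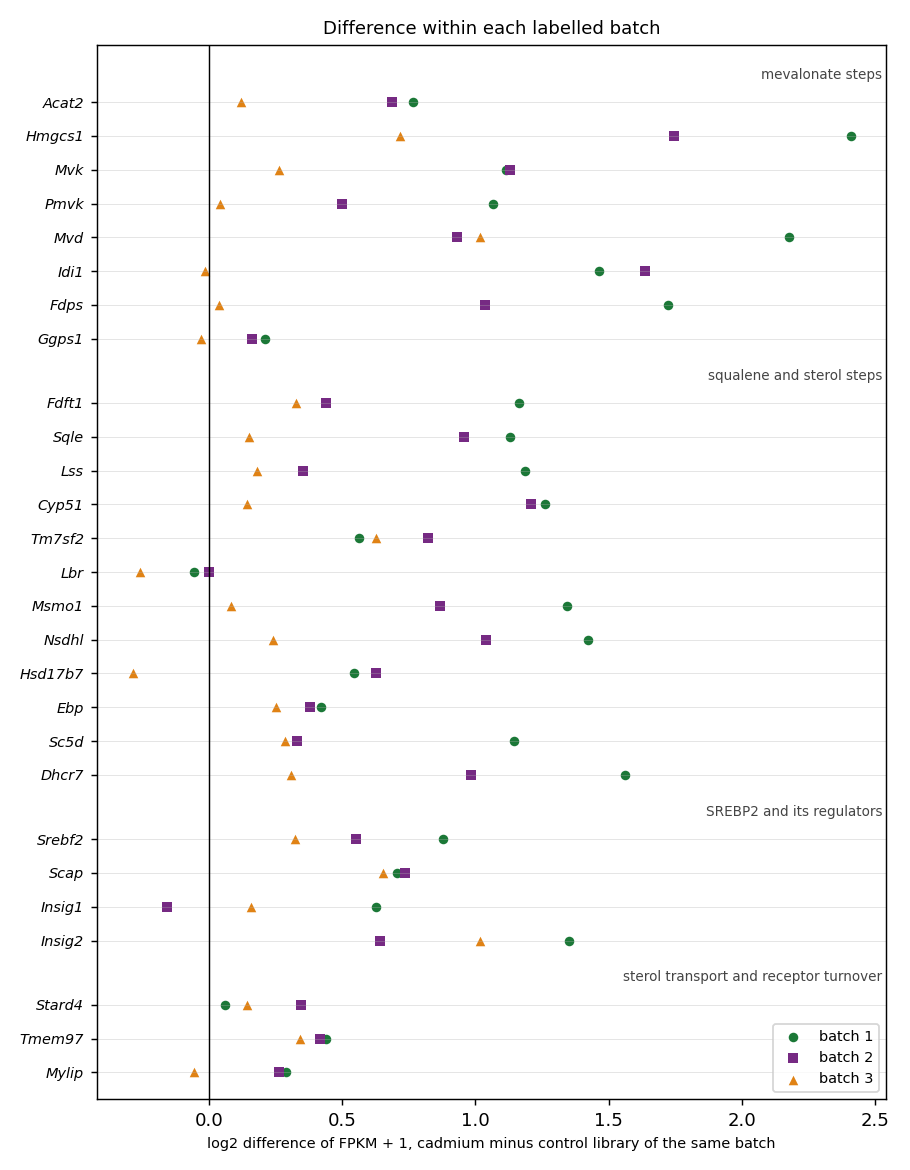
Log2 difference of FPKM + 1 between the cadmium and the control library of the same batch, for each of the 27 genes. Batch 3 (orange triangles) gives the smallest difference for 22 of the 27, and Scap and Tm7sf2 have similar differences in the 3 batches.

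The order of the libraries differed among the other lipid lists. Cadmium replicate 1 was the highest cadmium library for 9 of 11 SREBP1 lipogenic targets, against 28.2% of all genes, and control replicate 3 the highest control for 6 of the 11, against 33.9%. Among 9 genes of bile acid and oxysterol synthesis cadmium replicate 1 was highest for 1 and control replicate 3 for 7. Among 12 genes of cholesterol esters, uptake and efflux those numbers were 1 and 2, among 8 LXR genes 2 and 3, and among 12 other genes of sterol synthesis and SREBP processing 3 and 4. Of the 11 SREBP1 targets 0 were called and the median log2 fold change was 0.20. Thrsp, a regulator of lipogenesis, had 77.0, 19.5 and 29.0 FPKM in cadmium libraries, against 134, 77.6 and 224 FPKM in control libraries (log2 fold change -1.88, adjusted p = 0.122). Acss2, which makes acetyl-CoA from acetate, had 55.6, 15.7 and 28.3 FPKM in cadmium libraries, against 16.3, 7.01 and 15.8 FPKM in control libraries (1.19, adjusted p = 0.225). Whether the order of the libraries in these genes bears on that in the cholesterol genes was not tested.

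Of 12 further tested genes of sterol synthesis and SREBP processing 0 rose and 1 fell, against 7.86% and 1.82% of all tested genes. Their median log2 fold change was 0.04. The gene that fell was Rnf145, a ubiquitin ligase of the endoplasmic reticulum reported to act on SCAP, with 2.56, 2.92 and 2.08 FPKM in cadmium libraries, against 5.30, 4.22 and 3.76 FPKM in control libraries. The groups did not overlap (log2 fold change -0.62, SE 0.13, adjusted p = 0.0332, or 0.0590 with the block), and the call was kept in 1 of the 6 fits without 1 library, that without cadmium replicate 2. Erlin2, a sterol-binding membrane protein, came next, with 4.08, 3.96 and 4.21 FPKM in cadmium libraries, against 3.03, 3.09 and 3.41 FPKM in control libraries (0.28, adjusted p = 0.0661).

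Por passes electrons to Sqle and Cyp51 as well as to other microsomal enzymes, and it fell. It had 48.5, 65.4 and 56.7 FPKM in cadmium libraries, against 146, 154 and 142 FPKM in control libraries (log2 fold change -1.37, SE 0.15, adjusted p = 0.00739, with 0.0380 in the blocked fit). The call was kept in all 6 fits without 1 library. Cyb5r3, which feeds electrons to Msmo1 and Sc5d through cytochrome b5, had 63.3, 39.7 and 57.9 FPKM in cadmium libraries, against 37.1, 41.1 and 36.4 FPKM in control libraries (0.46, adjusted p = 0.164). Of the 4 electron donors listed 0 rose and 1 fell, against 7.86% and 1.82% of all tested genes.

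Of the 10 tested genes that take isoprenoids from the mevalonate steps to other products 0 were called. Nus1 and Dhdds, the subunits of the enzyme that starts dolichol, had fold changes of opposite sign, at -0.28 (adjusted p = 0.0848) for Nus1 and 0.28 (0.127) for Dhdds.

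The receptors and targets of LXR, which answers to oxysterols, gave 1 call among 8 tested genes, against 9.68% of all tested genes. Abcg1, an exporter of cholesterol, was called higher, with 1.48, 1.60 and 1.73 FPKM in cadmium libraries, against 0.711, 1.15 and 0.867 FPKM in control libraries (log2 fold change 0.45, adjusted p = 0.0356, or 0.0721 with the block). It kept its call in 1 of the 6 fits without 1 library, that without control replicate 2. Abcg1 passed the filter on low values only through the cadmium libraries, so its call carries no weight. Lpcat3, a phospholipid acyltransferase, was at 21.1, 15.6 and 21.4 FPKM in cadmium libraries and 15.0, 15.7 and 15.7 FPKM in control libraries (adjusted p = 0.225). Among 12 tested genes of cholesterol esters, uptake and efflux 2 rose and 0 fell, against 7.86% and 1.82% of all tested genes. Lipa, the lysosomal acid lipase, had 28.1, 23.5 and 28.2 FPKM in cadmium libraries, against 15.5, 18.1 and 16.3 FPKM in control libraries (0.65, adjusted p = 0.0217, or 0.0721 with the block). Npc2, which hands cholesterol out of lysosomes, had 7.18, 6.82 and 8.46 FPKM in cadmium libraries, against 5.36, 4.88 and 4.81 FPKM in control libraries (0.49, adjusted p = 0.0284, or 0.0759 with the block). Without cadmium replicate 3 both were lost, at 0.101 and 0.117, and so they were without cadmium replicate 1 (0.0703 and 0.0738) or control replicate 3 (0.0675 and 0.0871), while Npc2 was also lost without control replicate 2 (0.0699).

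Abcg1, Lipa and Npc2 are also expressed by macrophages, whose markers went in both directions. Of 10 Kupffer cell and macrophage markers 9 were tested, 3 rose and 1 was called lower, 6 fold changes were positive and 3 negative, and the list summed to 69.1 to 80.7 FPKM in cadmium libraries and 36.5 to 60.4 FPKM in control libraries. Adgre1, Cd68 and Lyz2 rose. The marker called lower was Cd163, at 0.052 to 0.099 FPKM in cadmium libraries and 1.60 to 2.01 FPKM in control libraries, which passed the filter on low values only through the control libraries, so its call carries no weight. No marker of that list was at 0 in a library, and Timd4 stayed under 1 FPKM everywhere. Stellate cell and fibroblast markers, 6 of 7 tested of which rose, summed to 30.8 to 34.2 FPKM in cadmium libraries and 12.9 to 19.9 FPKM in control libraries. Of the 6, Col1a1, Col1a2 and Lum passed the filter only through the cadmium libraries, so their calls carry no weight. Sinusoidal endothelial markers summed to 37.6 to 50.3 FPKM in cadmium libraries and 26.8 to 40.3 FPKM in control libraries, with 2 of 8 called higher. In a bulk sample more cells of a type and more RNA in each cell cannot be told apart, and the part of these cells in any result here was not tested. Of the 12 hepatocyte markers 1 rose and 1 fell. Of all tested genes 7.86% rose and 1.82% fell, the shares beside each marker list here.

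Genes that turn cholesterol into bile acids and oxysterols gave 1 gene that rose and 1 that fell among 9 tested. These counts stand beside 7.86% and 1.82% of all tested genes. Hsd3b7, a dehydrogenase of bile acid synthesis, had 102, 128 and 108 FPKM in cadmium libraries, against 44.9, 39.6 and 55.6 FPKM in control libraries (log2 fold change 1.26, SE 0.17, adjusted p = 0.00946, with 0.0486 in the blocked fit). It too was called in all 6 fits without 1 library, and it overlaps the annotated gene Gm49388. Cyp39a1, an oxysterol hydroxylase, fell, with 7.20, 8.38 and 8.17 FPKM in cadmium libraries, against 12.4, 11.3 and 13.8 FPKM in control libraries (-0.60, adjusted p = 0.0203, or 0.0638 with the block). Leaving out cadmium replicate 1, cadmium replicate 3 or control replicate 3 ended that call, at 0.0685, 0.0845 and 0.0584.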

How the data were processed

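Liver input-fraction RNA from 6 libraries was read from 2 deposited tables. The authors' FPKM table gives genes by identifier, and the authors' second table gives log2 values with symbols, group means, a log2 fold change, a p-value and a false discovery rate; the test behind these is not given in the sources used here. Undoing log2 in the deposited values and subtracting 1 gave whole multiples of 1 step per library (100% within 0.05 of a read), from which reads were recovered. The build was mm10, and MACS2 2.1.1, STAR 2.7.1a, cutadapt 1.1.8 and SAMtools 1.3.1 are named, with DESeq2 and without roles, per the submitters' processing notes. Coordinates come from GENCODE annotation of that build, and 13 of the 27 genes overlap another annotated gene.

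Log2(FPKM + 1) was fitted with limma 3.58.1 (R 4.3.3; variance trend, robust moderation) over 9908 genes (3 or more libraries at FPKM 1 or above), with Benjamini-Hochberg adjustment and a threshold of 0.05. Fold changes on this scale understate those of low genes. FPKM depends on each library's total, and the 10 genes with most reads took 44.6% of it in control replicate 1 and 33.3% to 35.9% elsewhere. On simulated data the fit found nearly all changed genes but called more unchanged genes than its nominal rate, so a fit without the variance trend was added. The 27 genes held 185 to 39404 recovered reads per library, so that counting error is small beside the spread between libraries for most of them.

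The batch label pairs the libraries. Deviations from group means correlated at -0.21, -0.23 and -0.02 between same-numbered libraries. Libraries of unlike number gave -0.10 to 0.28, highest for cadmium replicate 2 and control replicate 1, so the data themselves do not show the pairing by number. The members and the lists were chosen with earlier results of these data known. Named genes are the 27 members and, in each other list, the called genes, up to 4. Where fewer than 2 were called, the 2 of smallest p are named. The cell type markers named singly are outside that rule and were chosen after their values were seen. Voom on the recovered reads, the fit with no variance trend and the fit without control replicate 1 and cadmium replicate 2 together were chosen after seeing the data. The deposited group means were identified but entered no fit or count.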

Additional observations from a re-analysis of the deposited data

How the results depend on the processing

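The median log2 fold change of the 27 genes minus that of all genes was 0.55 and lay between 0.47 and 0.64 over all alternatives. The 7 calls became 1 with the replicate block, 0 with no filter on low values, 3 with trimmed mean scaling and 4 with upper quartile scaling, and 4 without control replicate 1 and cadmium replicate 2 together, an alternative chosen after seeing the data. Leaving out 1 library gave 0 to 9 calls higher and 0 lower. Over all genes, 779 higher and 180 lower became 31 and 6 with no filter, which tests more genes, 347 and 298 with quantile normalization, 372 and 291 with trimmed mean scaling, 510 higher with upper quartile scaling, 184 and 64 with the replicate block, 381 and 493 when log2 values as deposited were fitted, 363 lower with voom on recovered reads, 478 higher without control replicate 1 and cadmium replicate 2 together, and 78 to 539 higher and 23 to 242 lower without 1 library. Directions turned for 3 uncalled genes: Ggps1 (-0.050 with quantile normalization), Insig1 (-0.11 without cadmium replicate 1, in a range up to 0.46 over the libraries left out) and Mylip (-0.089 without the 2 libraries together). The cause of these shifts was not tested.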
